A study of Homo sapiens with 6 samples.

Results

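The genes described here are 40 genes of glycolysis and of the response to low oxygen, taken by symbol from a table of 36601 genes. They cover glucose uptake, each step from glucose to lactate, lactate export, pyruvate dehydrogenase and its kinases, the PFKFB enzymes, the oxygen sensors and a set of genes known to be induced by hypoxia. Their level was not used to choose them, though the list was made with earlier results of these data known. Of the 40, 35 were abundant enough to be tested. The RNA came from NK-92, a human natural killer (NK) cell line that grows in culture with IL-2, and it was sequenced as poly(A)-selected mRNA. The 6 libraries were 3 of cells with a control short hairpin RNA (shCtrl) and 3 of cells with a hairpin against the long non-coding RNA miR155HG (shmiR155HG). Both groups had been stimulated with IL-2 at 1000 U/mL and IL-12 at 10 ng/mL for 12 h, so neither unstimulated cells nor cells at reduced oxygen were compared. The knockdown is a stable one in a single cell line, and neither the hairpin sequences nor the number of hairpins or clones behind the libraries is given in the labels. The labels do not say whether the 3 samples of a group were separate cultures, so every p-value measures the spread between these samples, which may be technical. The groups follow the sample titles, since the treatment field of shmiR155HG replicates 2 and 3 carries other numbers in the hairpin's name.

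Glycolysis splits glucose into pyruvate, and lactate dehydrogenase turns pyruvate into lactate, which leaves the cell through monocarboxylate transporters. Pyruvate dehydrogenase instead sends pyruvate into mitochondria, and the PDK kinases switch that enzyme off. In normal oxygen the EGLN prolyl hydroxylases mark the transcription factor subunit HIF1A for destruction. In low oxygen HIF1A persists, binds short DNA elements and raises many glycolytic genes together with genes such as VEGFA, BNIP3 and ADM. Activated NK cells are known for raising glycolysis after cytokine stimulation, and NK cells in tumours meet both low oxygen and lactate.

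The core of the DNA element bound by HIF is ACGTG or GCGTG. Promoters were read from 250 bases before to 50 bases after the transcription start, as given by RefSeq on GRCh38.p14, for 34 of the 40 members. On either strand, ACGTG occurred in 17 of the 31 tested members with a promoter (54.8%), against 27.8% of the 9130 promoters of all genes tested. GCGTG occurred in 18 of these 31 (58.1%), against 52.8%. The letters CACGTG hold ACGTG on both strands. The windows below are 5′ to 3′ along the gene, with the match in capitals. DDIT4 and PDK3 are shown because they moved most among the members that passed the test, and LDHA and PGK1 because they hold such a match and hardly moved.
DDIT4, chr10:72273787-72273815, + strand: agaacgttgcttACGTGcgcccggagtcc
PDK3, chrX:24465213-24465241, + strand: cgcgcgccgcgtACGTGcagcaaccgact
LDHA, chr11:18394465-18394493, + strand: agcccgactcacACGTGggttcccgcacg
PGK1, chrX:78104034-78104062, + strand: gcggcgtgccggACGTGacaaacggaagc
Relative to the start, these matches begin at position -125 in DDIT4, -61 in PDK3, -86 in LDHA and -202 in PGK1. Counted on either strand, DDIT4 and PDK3 held 1 ACGTG each, LDHA 5 and PGK1 3, of which 1 per gene is shown. A match of these letters is a description of the sequence and not a binding site. The other 5 members that passed the test, SLC2A1, KDM3A, LDHB, PFKL and PKM, had no ACGTG in this window. Each of them held 1 GCGTG there, the other form of the core, and DDIT4 and PDK3 held GCGTG as well (3 and 1).

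The libraries held 36588321 to 39157264 counts in shCtrl and 33454786 to 38481972 in shmiR155HG. The targeted transcript, MIR155HG (ENSG00000234883, a long non-coding RNA gene at chr21:25561810-25575168, + strand), had 73, 67 and 62 counts in shCtrl and 28, 19 and 10 in shmiR155HG. It was 3.43-fold lower (log2 fold change -1.78, SE 0.43, adjusted p = 0.0045). All 13 NK cell markers checked exceeded 1 CPM (counts scaled to a common library size) on average. Their summed level was 5000 to 5060 CPM in shCtrl and 4523 to 4697 in shmiR155HG. Of the 13, 4 were higher, 4 lower and 5 not called at an adjusted p under 0.05. Among all genes tested 7.26% were higher and 8.02% lower. GZMB, which encodes granzyme B, went from 1195 to 542.9 CPM, and the rise of IL2RB, a chain of the IL-2 receptor, from 1006 to 1270 CPM was the largest upward move in the list in CPM. Without GZMB the sum was 3802 to 3895 CPM in shCtrl and 4011 to 4126 in shmiR155HG. Of 7 T cell markers CD3E and TRAC were above 1 CPM on average, with the list's sum at 397.8 to 409.4 CPM in shCtrl and 399.8 to 417.4 in shmiR155HG, while CD8B was at 0 in every library. None of 4 B cell markers was above 1 CPM, and of 8 myeloid and erythroid markers CSF1R alone was. Whether these NK marker differences play a part in the values of the metabolic genes was not tested.

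Most glycolysis and hypoxia genes differed little between the groups, and the clearest changes were a rise of DDIT4 and falls of PDK3 and LDHB. Of the 35 tested, 3 were higher in shmiR155HG (SLC2A1, KDM3A and DDIT4) and 4 were lower (PFKL, PKM, LDHB and PDK3) at an adjusted p under 0.05 in edgeR's quasi-likelihood test. These are 8.57% and 11.4% of the members, against 7.26% higher and 8.02% lower among all 12263 genes tested. In 3 members all shmiR155HG libraries lay above all shCtrl libraries and in 8 they lay below, or 8.57% and 22.9%, against 15.2% and 15.6% of all genes tested. The study's rule was also re-run here (exact test, P under 0.01 with no adjustment, and more than 1.2-fold). Under it DDIT4 was higher and PDK3 lower, 2.86% of the members each, against 4.49% and 3.8% of all genes. The median log2 fold change of the 35 was -0.064, with 26 of them (74.3%) under 0, while over all genes it was 0.001 with 49.8% under 0. Only DDIT4 and PDK3 were both called and beyond 1.2-fold. For 18 of the 28 members not called, the 95% interval of the fold change lay within 1.2-fold in either direction, and for the other 10 it reached past that. In a bulk sample, fewer cells expressing a gene and less RNA per cell cannot be told apart.

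**Figure D1:**
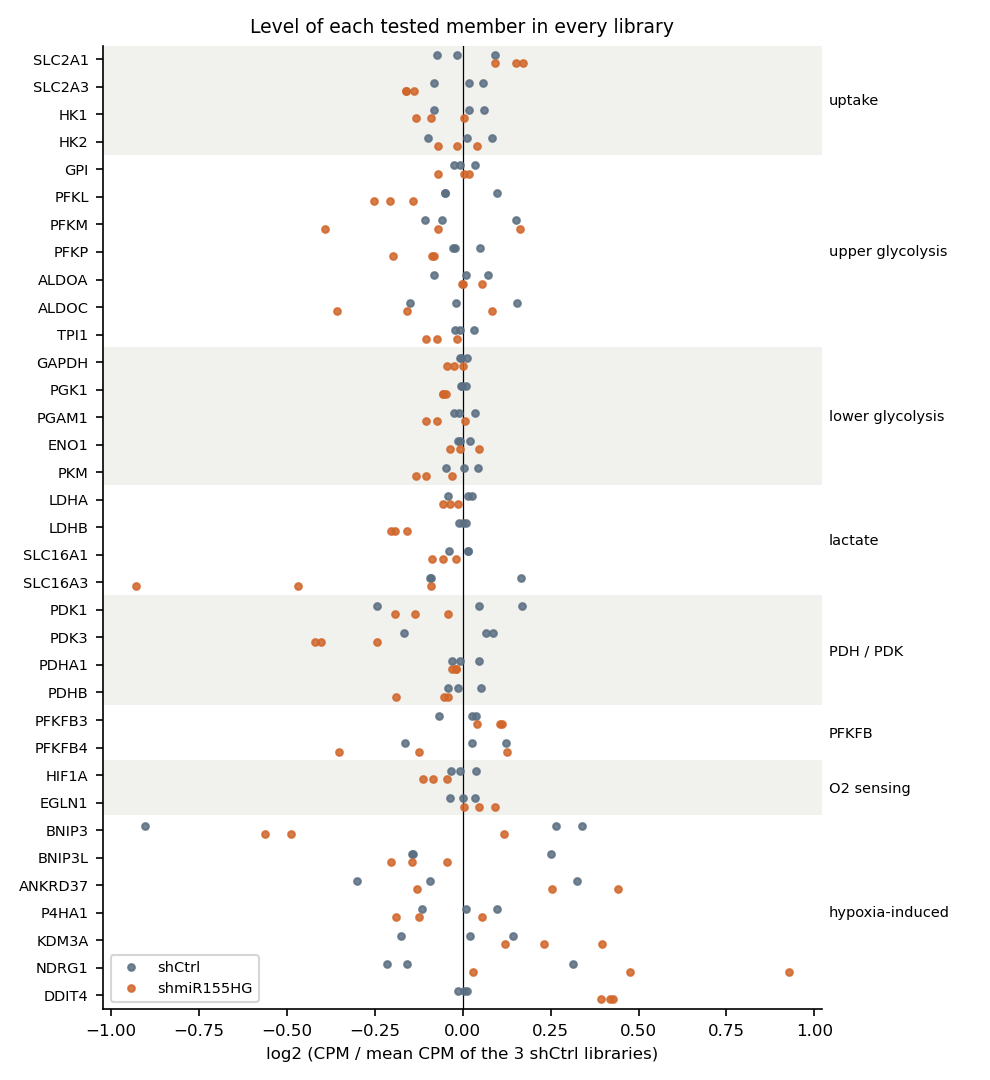
Level of each of the 35 tested members in each library, as log2 of its CPM over the mean of the 3 shCtrl libraries (x axis), with members in order of their role (y axis) and each point 1 library. DDIT4 and LDHB show groups that are far apart for their spread, most members overlap around 0, and the scatter is wide for the scarce genes BNIP3, SLC16A3 and NDRG1.

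The members include the glucose transporters SLC2A1 (GLUT1) and SLC2A3 (GLUT3), whose fitted changes had opposite signs. Of these, SLC2A1 alone passed the test. SLC2A1 had 130, 125 and 140 CPM in shCtrl and 148, 146 and 140 in shmiR155HG. It rose by a fitted log2 change of 0.14 (SE 0.047, adjusted p = 0.0469), and its groups met at about 140 CPM without crossing. SLC2A3 had 87.3, 93.5 and 96.2 CPM in shCtrl and 82.5, 82.6 and 83.9 in shmiR155HG, so that its groups did not overlap. Its fitted log2 change was -0.15 (SE 0.055) and did not pass the test (adjusted p = 0.056). The hexokinases, which trap glucose in the cell as a phosphate, were at log2 fold changes of -0.07 for HK1 (adjusted p = 0.301) and -0.01 for HK2 (adjusted p = 0.923), with overlapping groups. The SLC2A1 call was lost in 10 of 17 alternatives, with a highest adjusted p of 0.305 and a value of 0.08 after a correction for GC content.

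In upper glycolysis, the liver-type phosphofructokinase PFKL fell while the platelet and muscle types did not pass the test. Phosphofructokinase commits the sugar to glycolysis, and of its 3 types NK-92 cells held mostly PFKP and PFKL RNA (186 and 86.9 TPM, the CPM scaled by transcript length, against 6.6 for PFKM). PFKL (ENSG00000141959) had 101, 101 and 112 CPM in shCtrl and 87.8, 94.8 and 90.6 in shmiR155HG. The groups did not overlap, and the fitted log2 change was -0.20 (SE 0.055, adjusted p = 0.0123). Without shCtrl replicate 3 the PFKL value was -0.15 with an adjusted p of 0.0877, and the call was also lost without shmiR155HG replicate 1 (0.0719) and without shmiR155HG replicate 3 (0.0528). PFKP, at 202 ± 6.43 CPM (SD, n = 3) in shCtrl and 186 ± 8.3 in shmiR155HG, had a log2 fold change of -0.12 and groups that did not overlap, with an adjusted p of 0.0532. PFKM, present at 8.45 CPM in shCtrl, was at -0.08 with an SE of 0.17, and it shares 7.12% of its exon length with SENP1 on the opposite strand, which held 82.5 CPM. The highest level per transcript length in this stretch was that of the aldolase ALDOA, at 1600 TPM in shCtrl, and its CPM was 1089 ± 58.9 in shCtrl against 1102 ± 24.5 in shmiR155HG. Part of the ALDOA signal cannot be assigned, since an annotated read-through gene on the same strand shares 42.8% of its exon length and held 185 CPM. GPI, TPI1 and ALDOC, the isomerases and the second aldolase, ranged from -0.13 to -0.02 on the log2 fold change scale and were not called.

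Of the lower glycolysis enzymes, ENO1, GAPDH and PKM had the highest levels per transcript length of all members, and ENO1 and GAPDH hardly differed between the groups. Per transcript length in shCtrl, ENO1 (enolase) stood at 5660 TPM, GAPDH at 4670, PKM (pyruvate kinase) at 3530, PGAM1 at 498 and PGK1 at 378. ENO1 was at 4176 ± 54.6 CPM in shCtrl and 4177 ± 122 in shmiR155HG, a log2 fold change of 0.00. GAPDH was at 2487 ± 19.6 and 2447 ± 38.5 CPM, a log2 fold change of -0.02 with a 95% interval of -0.08 to 0.03.
PKM alone passed the test here. It had 3264, 3383 and 3476 CPM in shCtrl and 3135, 3074 and 3304 in shmiR155HG, and the highest shmiR155HG library lay above the lowest shCtrl library. Its fitted log2 change was -0.09 (SE 0.03, adjusted p = 0.0431), and 7 of 17 alternatives lost the call, with adjusted p up to 0.25. With the replicate number as a block the PKM call was lost (adjusted p = 0.0564), as was that of SLC2A1 (adjusted p = 0.0651). PGK1 had 751, 758 and 750 CPM in shCtrl and 729, 724 and 724 in shmiR155HG, groups that did not overlap with a fitted log2 change of only -0.05 (adjusted p = 0.256). PGAM1 was at -0.06 and was not called. ENO2, the neuronal enolase, had 4, 7 and 10 counts in shCtrl and 3, 0 and 0 in shmiR155HG and was too scarce to test.

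At the lactate step, LDHB fell and LDHA did not pass the test. LDHA and LDHB encode the 2 subunits of lactate dehydrogenase, of which the A form favours making lactate and the B form favours using it. LDHB (ENSG00000111716, chr12:21635342-21757857, - strand) had 452, 449 and 446 CPM in shCtrl and 402, 390 and 393 in shmiR155HG. The gap between the groups was many times the spread within them, with a fitted log2 change of -0.19 (SE 0.032, adjusted p = 0.000177). LDHA had 984, 976 and 939 CPM in shCtrl and 943, 930 and 958 in shmiR155HG. These groups overlapped, and the 95% interval of its log2 fold change of -0.03 ran from -0.10 to 0.03. The lactate exporter SLC16A1 (MCT1), at 158 TPM in shCtrl, was at -0.05 (adjusted p = 0.371). SLC16A3 (MCT4), the exporter known from cells with high glycolysis, was scarce at 3.639 ± 0.386 CPM in shCtrl and 2.654 ± 0.751 in shmiR155HG, and its log2 fold change of -0.45 had an SE of 0.27 (adjusted p = 0.304). It shares 5.22% of its exon length with CSNK1D on the opposite strand, which held 258 CPM.

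**Figure D2:**
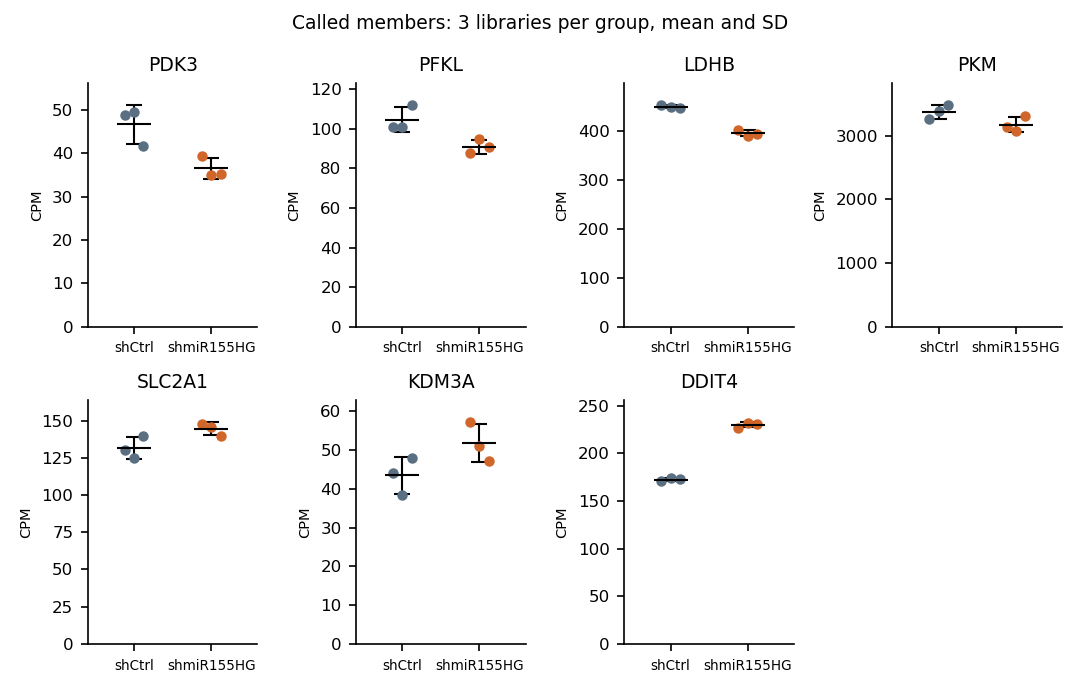
CPM (y axis, from 0) of the 7 members that passed the test, with 3 points per group for the 3 libraries, the bar at the mean and the whiskers at 1 SD. DDIT4, LDHB, PDK3, PFKL and SLC2A1 have groups that do not overlap, while KDM3A and PKM overlap.

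Among the genes that govern the fate of pyruvate, PDK3 fell. PDK3 (ENSG00000067992, chrX:24465244-24550466, + strand), 1 of the kinases that inactivate pyruvate dehydrogenase, had 48.9, 49.6 and 41.6 CPM in shCtrl and 39.4, 34.9 and 35.3 in shmiR155HG. The lowest control library lay above the highest knockdown library, and the fitted log2 change was -0.36 (SE 0.08, adjusted p = 0.00235). PDK3 was the more abundant of the pair PDK3 and PDK1, at 46.7 CPM in shCtrl against 16.36 for PDK1. Scaled by annotated transcript lengths of 1741 and 14072 nt, these were 64.7 and 2.81 TPM. The wider gap in TPM rests on those lengths. PDK1 had overlapping groups and a fitted log2 change of -0.12 (SE 0.12, adjusted p = 0.583). The catalytic subunits of the complex were at -0.03 for PDHA1 (adjusted p = 0.759) and -0.09 for PDHB (adjusted p = 0.372), with 129.8 ± 3.7 against 127.4 ± 0.451 CPM for PDHA1. The PFKFB enzymes set the level of fructose 2,6-bisphosphate, the activator of phosphofructokinase. PFKFB3 was at 46.44 ± 1.83 CPM in shCtrl and 49.37 ± 1.33 in shmiR155HG, with groups that did not overlap but an adjusted p of 0.429, and PFKFB4 was at -0.11 (adjusted p = 0.777). PFKFB2 had 0 to 23 counts per library and was not tested.

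Neither HIF1A nor the oxygen sensor EGLN1 passed the test. HIF1A had 234, 223 and 227 CPM in shCtrl and 215, 211 and 221 in shmiR155HG. All knockdown libraries were below all controls, yet the fitted log2 change was only -0.08 (SE 0.038, adjusted p = 0.165). EGLN1, the main prolyl hydroxylase that acts on HIF1A, was at 46.17 ± 1.15 CPM in shCtrl and 47.73 ± 1.41 in shmiR155HG (log2 fold change 0.05, adjusted p = 0.709). EGLN3, an oxygen sensor that HIF itself is known to induce, had 0 counts in 5 libraries and 2 in the other, shmiR155HG replicate 3.

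Of the hypoxia-induced genes, DDIT4 and KDM3A rose. DDIT4 (REDD1, an inhibitor of the growth kinase mTORC1 that hypoxia and other stresses induce; ENSG00000168209, chr10:72273919-72276036, + strand) had 171, 174 and 173 CPM in shCtrl and 227, 232 and 231 in shmiR155HG. The groups lay far apart for their spread, and the fitted log2 change was 0.41 (SE 0.038, adjusted p = 5.51e-09). The histone demethylase gene KDM3A had 44, 38.4 and 47.9 CPM in shCtrl and 57.1, 51 and 47.2 in shmiR155HG. One library of each group crossed into the range of the other, the fitted log2 change was 0.25 (SE 0.081, adjusted p = 0.0307), and the adjusted p was 0.22 without shCtrl replicate 2 and 0.219 without shmiR155HG replicate 1. The call was also lost without shCtrl replicate 1 (0.0671) and without shmiR155HG replicate 2 (0.0877).

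Of the other hypoxia-induced members, VEGFA, ADM, BNIP3, BNIP3L, NDRG1 and ANKRD37 were low or at 0, and P4HA1 was more abundant. VEGFA, the vessel growth factor, had 4 to 18 counts per library, and ADM, the peptide hormone adrenomedullin, had 0 counts in all 6, which allows at most 0.0766 to 0.0897 CPM if a count of 0 hides up to 3 counts per library. BNIP3, a mitophagy receptor, was at 1.281 ± 0.518 CPM in shCtrl and 1.057 ± 0.291 in shmiR155HG (log2 fold change -0.28, SE 0.42), and its relative BNIP3L was at -0.13 (SE 0.17). NDRG1 had the largest fitted change of all members, 0.52, from 3.39, 3.26 and 4.7 CPM in shCtrl to 5.26, 7.2 and 3.86 in shmiR155HG. The groups overlapped, the SE was 0.24 and the adjusted p was 0.15. ANKRD37, at 0.21 (SE 0.24), shares 40.3% of its exon length with UFSP2 on the opposite strand, which was the more abundant of the pair. For ANKRD37, SLC16A3 and PFKM the reads of the partner cannot be told apart from the gene's own, since the sources used here do not say whether strand was used in counting. P4HA1, a collagen prolyl hydroxylase, was at 34.01 ± 2.53 CPM in shCtrl and 32.12 ± 2.87 in shmiR155HG (log2 fold change -0.08, adjusted p = 0.599). Summed over the 12 oxygen-sensing and hypoxia-induced members, the level was 549.1, 530.8 and 545.3 CPM in shCtrl and 601.8, 593.1 and 593.6 in shmiR155HG, 10.0% higher. Without DDIT4 the sums were 377.7, 357.1 and 372.3 CPM against 374.5, 360.9 and 362.8, a change of -0.813%. The 21 glycolysis and lactate members summed to 15940, 16020 and 16300 CPM in shCtrl and 15750, 15400 and 15830 in shmiR155HG, a change of -2.65%.

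**Figure D3:**
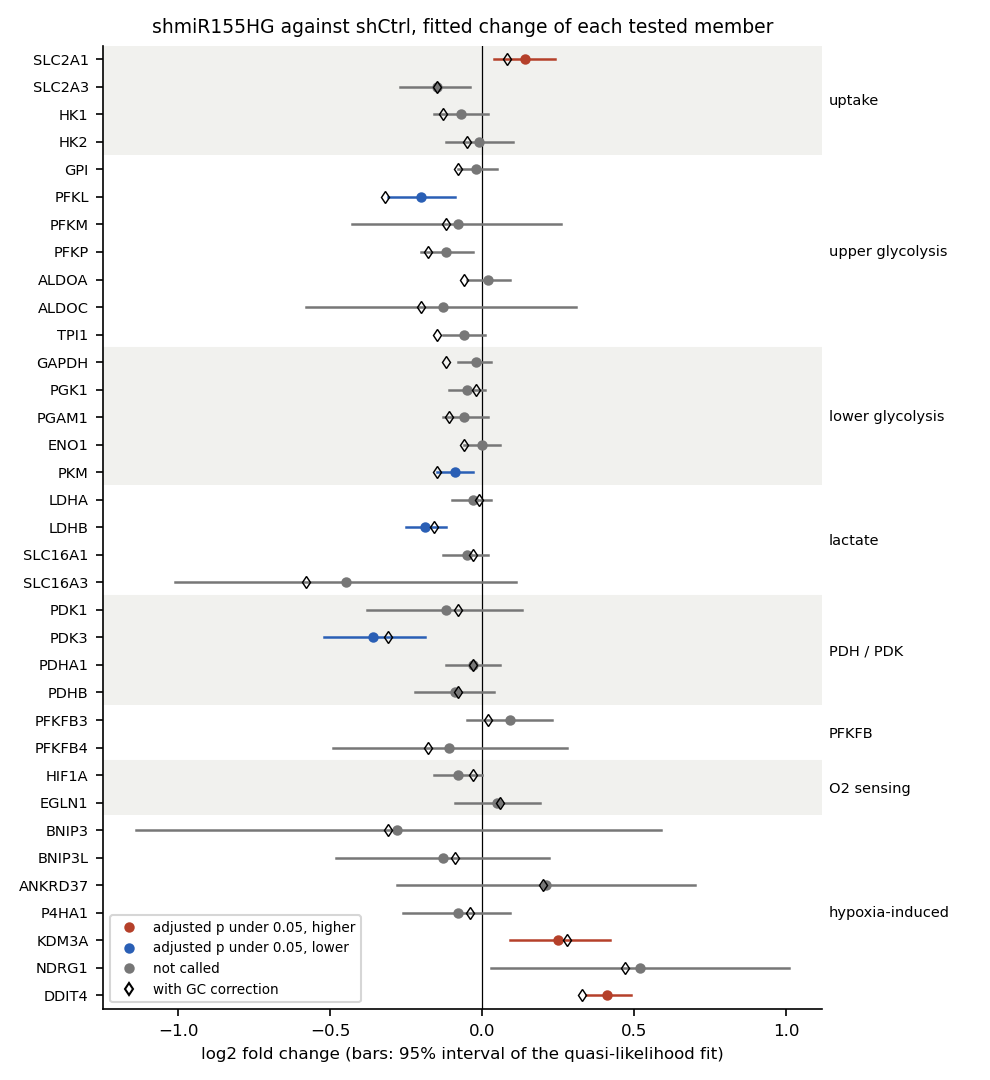
Fitted log2 fold change of shmiR155HG against shCtrl (x axis) for each of the 35 tested members in order of role (y axis), with filled circles for the main fit, bars for its 95% interval and open diamonds for the value after a GC correction. DDIT4 at 0.41 and PDK3 at -0.36 stand clear of 0 in both, while GC-rich glycolytic genes such as PFKL, GAPDH and TPI1 move to lower values under the correction.

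The ratio between related genes within a library does not depend on the library's depth. The ratios recombine the levels of members and were chosen after their values were seen. Per kilobase of transcript, the SLC2A1 to SLC2A3 ratio was 1.68, 1.51 and 1.64 in shCtrl and 2.03, 2 and 1.89 in shmiR155HG. The groups did not overlap, and the mean went from 1.61 ± 0.092 to 1.97 ± 0.076, or 22.4% higher. The LDHA to LDHB ratio was 1.27, 1.26 and 1.22 in shCtrl and 1.36, 1.39 and 1.42 in shmiR155HG, 11.1% higher and again without overlap. The other 8 ratios examined, among them HK1 to HK2, PFKP to PFKL and PDK3 to PDK1, overlapped between the groups. Among all single genes tested, the groups did not overlap in 15.2% (shmiR155HG higher) and 15.6% (lower). With 3 libraries against 3 the smallest p that an exact two-sided permutation test can give is 0.1. LDHA and LDHB have nearly the same GC content, 43.6% and 43.5%, and after the GC correction they were at -0.01 and -0.16. SLC2A1 and SLC2A3 differ in it, at 53.6% and 45.3%, and were then at 0.08 and -0.15.

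**Figure D4:**
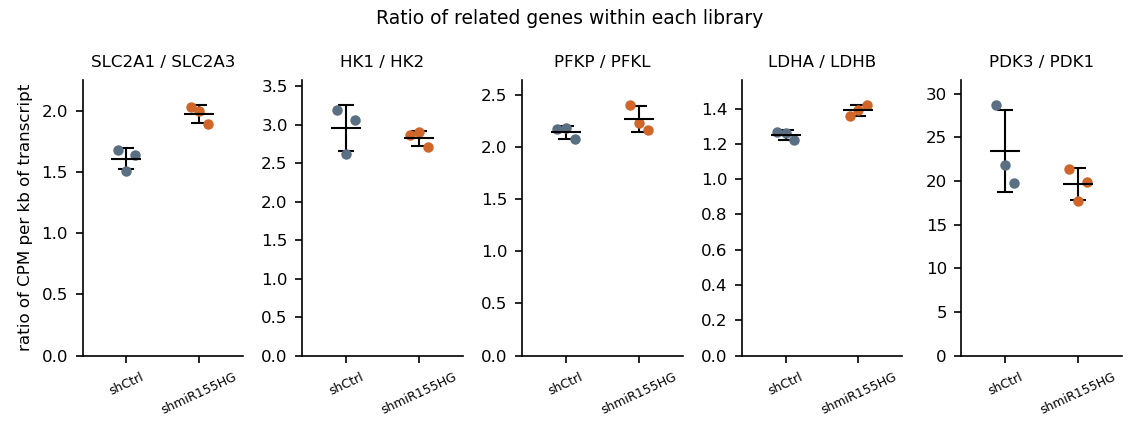
Ratio of CPM per kilobase of transcript between 5 pairs of related genes (y axis, from 0) in each library, with the mean and 1 SD of the 3 libraries per group. The SLC2A1 to SLC2A3 and LDHA to LDHB ratios are higher in every shmiR155HG library than in any shCtrl library, and the other 3 pairs overlap.

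Members with and without ACGTG in their promoter both held higher and lower calls. Of the 17 with a match, 1 rose and 1 fell, with a median of -0.03 on the log2 scale and a range of -0.45 to 0.41. Of the 14 without, 2 rose and 3 fell, with a median of -0.08 and a range of -0.20 to 0.25. miR155HG is also the transcript from which the microRNA miR-155 is cut, so the 3′ ends of the members were searched for its target letters. The mature sequence is from RefSeq (chr21:25573983-25574006, + strand, GRCh38.p14), with the seed, bases 2 to 8, in capitals.
hsa-miR-155-5p: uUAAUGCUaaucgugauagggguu
The matching site, AGCATTA, occurred in the 3′ UTR of 4 of the 35 tested members (11.4%), against 11.9% of 10769 genes tested that have one. The windows below, read from hg38 along the canonical transcript, show all 4 with the site in capitals, and the first of the 2 in PDK1.
HIF1A: taattttagaAGCATTAttttaggaat
EGLN1: acaactcaaaAGCATTAtcttttttag
HK1: gtgtgggcatAGCATTAgctgcttcct
PDK1: tttgtccaccAGCATTAatgtaacaca
Their log2 fold changes were -0.08, 0.05, -0.07 and -0.12 in this order, with adjusted p from 0.165 to 0.709.

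In the further lists, the shares called can be read against 7.26% higher and 8.02% lower among all genes tested. Of 24 tested further glycolysis and pyruvate genes, 2 rose and 2 fell (8.33% each). MPC1, a subunit of the carrier that brings pyruvate into mitochondria, rose by a fitted log2 change of 0.34 (adjusted p = 0.00213). The other was PGAM5 (0.14, adjusted p = 0.0286), listed for its symbol though it encodes a mitochondrial protein phosphatase and not a glycolytic enzyme. PDK2, another kinase of pyruvate dehydrogenase, was at -0.38 (SE 0.096, adjusted p = 0.00629), and DLD, a subunit shared by mitochondrial dehydrogenases, at -0.16 (adjusted p = 0.00613).
Of 29 further oxygen-sensing and hypoxia genes, KDM4B (0.22, adjusted p = 0.0177) and BHLHE40 (0.14, adjusted p = 0.00377) rose and RORA (-0.26, adjusted p = 0.0132) fell. Of the 10 pentose phosphate genes, H6PD rose (0.26, adjusted p = 0.00827) and RPE fell (-0.22, adjusted p = 0.00952).
Of the 18 tricarboxylic acid cycle genes, which encode the mitochondrial enzymes that burn acetyl-CoA and their close partners, 4 fell (22.2%), and 17 were under 0. Fumarase, FH, went from 147.4 ± 5.2 to 124.4 ± 1.34 CPM (log2 fold change -0.25, adjusted p = 0.000241). MDH1, the cytosolic malate dehydrogenase, was at -0.25 (adjusted p = 0.00414) and the succinate-CoA ligase subunit SUCLG2 at -0.22 (adjusted p = 0.0349).
Of 18 nutrient and growth regulators of glycolysis, 7 rose (38.9%). MYC, a transcription factor known to raise glycolytic genes, went from 383.6 ± 20.9 to 483.5 ± 6.44 CPM (log2 fold change 0.33, adjusted p = 1.59e-07). SLC3A2 and SLC7A5, which together form an amino acid transporter, rose by 0.31 (adjusted p = 1.38e-06) and 0.25 (adjusted p = 6.66e-05).

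**Figure D5:**
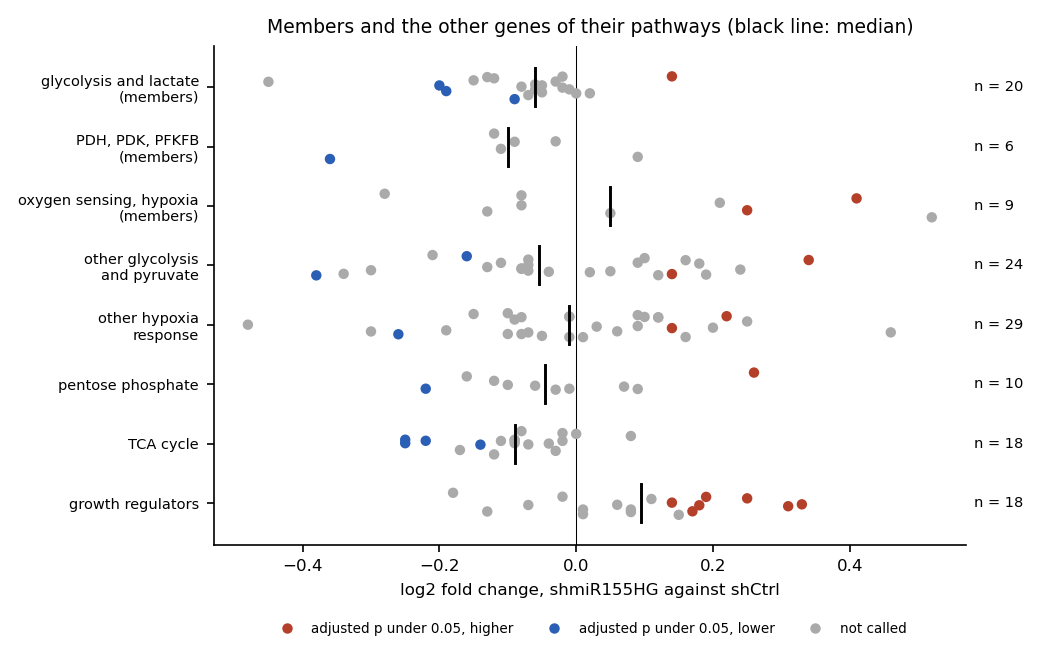
Log2 fold change (x axis) of every tested gene in 3 groups of members and 5 further lists (y axis), 1 point a gene, coloured by whether it passed the test, with a black line at the median. The tricarboxylic acid cycle list holds 4 lower calls, with 17 of its 18 genes under 0, and the growth regulators hold 7 higher calls. The medians of the 8 groups run from -0.099 (pyruvate dehydrogenase, PDK and PFKFB members) to 0.096 (growth regulators), against 0.001 over all genes.

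GC content moved with these differences. Over 12216 genes the rank correlation between a gene's exonic GC content and its log2 fold change was 0.245, a description across genes that share the same 6 libraries. The tested members had a median GC content of 51.1%, against 47.6% for all genes tested. The 7 regulators that rose had 51.7% to 65.9%, and the 4 tricarboxylic acid cycle genes that fell had 39.1% to 43.2%. After a loess correction of each library for GC content, 2 members were higher and 9 lower. Over all 12216 genes in that fit, 706 were higher and 1107 lower, against 890 and 984 of 12263 without the correction. Among the members, GAPDH (-0.12, adjusted p = 0.00222), HK1 (-0.13, adjusted p = 0.0381), PFKP (-0.18, adjusted p = 0.00229), PGAM1 (-0.11, adjusted p = 0.0387) and TPI1 (-0.15, adjusted p = 0.0031) joined the lower calls. SLC2A1 was lost from the higher ones. Of the 20 tested glycolysis and lactate members, 8 then fell, and their median went from -0.061 to -0.122. The median of all genes went from 0.001 to -0.0157. DDIT4 stayed at 0.33, PDK3 at -0.31 and LDHB at -0.16, all called. Of the 7 regulators, MYC at 0.29 (adjusted p = 1.33e-06), SLC3A2 at 0.26 (adjusted p = 1.88e-05) and SLC7A5 at 0.14 (adjusted p = 0.0106) kept their call, AKT2, STK11, MLXIP and SLC1A5 lost it, and TXNIP gained one. Of the tricarboxylic acid cycle genes, FH, MDH1 and IDH3A kept their call, SUCLG2 lost it (adjusted p = 0.0915), and IDH2 and OGDH gained one. Among the other further genes, H6PD (adjusted p = 0.0614), KDM4B (0.2), PGAM5 (0.346) and DLD (0.0692) lost their calls, while MPC1, PDK2, BHLHE40, RORA and RPE kept theirs. P4HB, PLOD1 and PGD were among the genes called lower after the correction and not before it. These 3 genes, TXNIP, IDH2, OGDH, IDH3A and the regulators that lost a call were named after their values were seen, as were GZMB and IL2RB.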

How the data were processed

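The deposited values were counts per gene for 6 NK-92 libraries, paired-end and poly(A)-selected. The authors made them with HISAT2 (reference hg38), StringTie and prepDE.py3; among them, 53.4% of counts from 1 to 59 were even. The annotation release, strand setting and assumed read length are not given in the sources used here. The study's filter, over 1 CPM in 2 or more libraries, left 12263 genes. Groups were compared with the quasi-likelihood test of edgeR 4.0.16 (R 4.3.3) with TMM factors and Benjamini-Hochberg adjustment, checked on simulated data; an SE is the log2 fold change divided by the root of F. CPM used TMM-scaled totals, and TPM the canonical transcript length in GENCODE, which matched 36366 of 36601 gene IDs. The alternatives were DESeq2 1.42.0 and limma 3.58.1, the study's exact test, other scalings and filters, halved counts, a GC correction, a replicate block and leaving out each library. All 40 members are described by role, with each library's value for those called. From each further list, up to 3 genes per direction with the largest change at an adjusted p under 0.05 are named. The members and lists were chosen with earlier results of these data known, and the ratios of related genes after their values were seen. Intervals and floors of a count of 0 cover counting error or the spread of these 6 libraries only. The chi-square per gene between replicates averaged 7.03 to 10.1, so none was a second copy of another within sampling noise.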

Additional observations from a re-analysis of the deposited data

How the results depend on the processing

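DDIT4 and PDK3 were called in all 17 alternatives (0.33 to 0.42 and -0.43 to -0.31 on the log2 scale), and LDHB in all but the study's rule (-0.20 to -0.16). Under the study's exact test and rule as re-run here, 551 genes were higher and 466 lower, with 1 member each way. Both counts are below those the paper reports for this comparison, so its counts were not reproduced. A mean of at least 5 CPM moved the members' median from -0.064 to -0.057. The GC correction gave 9 lower members and a median of -0.080. Over all genes it gave 706 higher, 1107 lower and a median of -0.0157. With the replicate block added, 9 members were lower with a median of -0.073. Over all genes that fit gave 646 higher, 1004 lower and a median of -0.0162. The cause of the GC trend was not tested. With each library left out in turn, genes higher ranged from 580 to 891, genes lower from 674 to 917, members higher from 1 to 3, members lower from 2 to 5 and the median from -0.066 to -0.043, with fewer samples in each fit. The lowest number of genes higher, 580, came without shmiR155HG replicate 2. Members higher fell to 1 without shCtrl replicate 1 or 2 or shmiR155HG replicate 1 or 2, and members lower fell to 2 without shCtrl replicate 3 or shmiR155HG replicate 1. Replicate numbers did not pair the libraries (correlations from -0.03 to 0.02). The replicate block gave 829 genes higher and 909 lower, 2 members higher and 3 lower, and a median of -0.064. Over single genes, 566 fits stayed on their side of the threshold, 27 lost a call, 13 gained one and 0 turned a call round. Only a called gene can lose a call. The losses were in SLC2A1 (10 of 17 alternatives), PKM (7), KDM3A (5), PFKL (4) and LDHB (1). Some members that were not called changed sign, such as ALDOA (0.02, and -0.06 after the GC correction). The intervals of the scarce members BNIP3, NDRG1, SLC16A3 and ANKRD37 reached past 1.2-fold, and how much of that is depth was not tested.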
